A study of Mus musculus with 20 samples.

Results

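Messenger RNA of 10 circadian clock genes was followed in the amygdala and the hippocampus of mice before and after conditioned fear (CF) learning. The genes are Per1, Per2, Per3, Cry1, Cry2, Clock, Dbp, Tef, Nr1d1 and Nr1d2. They were chosen by name, as those transcript clusters (the sets of probes that the array reads out as 1 value) that the array annotation pairs with 1 of these symbols alone. Each gene had 1 such transcript cluster, so that the members are 10 of the 19938 genes that the array names in this way. None of the 10 genes passed the test for a change after CF learning or for a difference between WT and DKO mice. Per3 and Clock had higher levels in the hippocampus than the amygdala had.

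The mammalian clock is a loop of transcription and repression. CLOCK and its partner BMAL1, which is encoded by Arntl, bind E-box sequences and switch on Per and Cry genes, whose proteins return to the nucleus and repress that same pair. A further loop runs through the nuclear receptors REV-ERBα and REV-ERBβ, encoded by Nr1d1 and Nr1d2, and output factors such as DBP and TEF carry the rhythm to other genes. Brain regions outside the suprachiasmatic nucleus, the master pacemaker of the hypothalamus, also express these genes, and Per1 is known to answer to cAMP signalling and to glucocorticoids.

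The study used 20 Affymetrix Mouse Gene 1.0 ST arrays, 1 per region, genotype and time point, each with RNA pooled from 5 to 10 male C57BL/6 mice labelled as 2 months old. DKO mice lack AC1 and AC8, the adenylyl cyclases that calcium stimulates to make cAMP, and WT mice have both. Tissue was taken at baseline (5 min before training, with no shock), and 0 hr, 1 hr and 48 hr after a 5 min training trial with 1 foot shock of 0.7 mA for 2 sec, or 1 wk later, when the mice were killed after a 5 min testing trial in the same chamber. Amygdala and hippocampus were sampled as micropunches. According to the methods, WT mice were C57Bl/6 animals that were not littermates of the DKO mice. The DKO mice were bred in the matings that also gave AC8 rescue mice, were kept on doxycycline until weaning and could carry 1 transgene of that system (tetop-AC8, or tTA under the forebrain promoter CaMKII) or neither. Behavioural work was done within a few hours after lights on. The clock time at which the tissue of each time point was collected is not given in the sources used here, and baseline and later samples came from different mice, so that time after CF learning and time of day cannot be told apart. The methods do not say whether amygdala and hippocampus pools were punched from the same animals.

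Levels are the deposited log2 values from RMA, on which a difference of 1 is a doubling. Array medians lay between 6.64 and 6.83. Adcy8, which encodes AC8, lay between 6.94 and 7.66 on the 10 WT arrays and between 5.22 and 5.89 on the 10 DKO arrays, and Adcy1 was also lower on every DKO array than on any WT array of its region. A list of 9 hippocampal marker genes had means of 6.59 to 7.02 on amygdala arrays and 7.61 to 7.86 on hippocampus arrays, and a list of 9 amygdala markers had means of 7.99 to 8.31 and 7.61 to 7.86. The amygdala DKO array at 48 hr held the lowest mean over the 10 clock genes, 7.64 against 7.69 to 7.92 on the others, and the median change of all transcript clusters from baseline to that array was -0.13. Values without it stand beside several of the results below. That array was picked by the level of these same genes, so a pass gained by leaving it out is not independent support.

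Start-site sequences are shown for the members whose upstream bases hold a clock motif, since these are the elements through which the loop described above is read. RefSeq promoter sequences of build GRCm38.p6 were at hand for 9 of the 10 genes in 13 windows, and the 250 bases before each start site were searched on both strands for the E-box CACGTG, for the D-box TTATGTAA or TTACGTAA that DBP and TEF bind, and for the cAMP response element TGACGTCA. Motif letters are in capitals and each stretch is read 5′ to 3′ on the strand of the gene.
Per1, chr11:69098756-69098815, plus strand: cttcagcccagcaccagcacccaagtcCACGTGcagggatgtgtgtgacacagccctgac
Cry1, chr10:85185082-85185141, minus strand: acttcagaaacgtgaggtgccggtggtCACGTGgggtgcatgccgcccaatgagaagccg
Tef, upstream start site, chr15:81802519-81802578, plus strand: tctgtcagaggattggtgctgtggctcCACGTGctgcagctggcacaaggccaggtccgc
Tef, downstream start site, chr15:81811249-81811308, plus strand: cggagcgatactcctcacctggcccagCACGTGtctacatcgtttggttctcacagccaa
Per3, chr4:151044789-151044897, minus strand: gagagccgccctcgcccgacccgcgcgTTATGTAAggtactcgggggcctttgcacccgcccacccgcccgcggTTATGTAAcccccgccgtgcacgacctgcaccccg

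The E-box began 166 bases before the start site in Per1 and 60 bases before it in Cry1. In Tef it began 127 bases before the upstream start site and 138 bases before the downstream one. The D-boxes of Per3 began 205 and 158 bases before its start site. Of all 32851 mouse windows of this length, 6.02% held the E-box, 0.931% the D-box and 1.55% the cAMP response element. No window of the 9 genes held TGACGTCA, and the windows of Cry2, Clock, Dbp, Nr1d1 and Nr1d2 held none of the motifs, which says only that these letters are not in these 250 bases. Per1 has a further window with no motif.

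Clock, the activating partner of BMAL1, was higher in the hippocampus. In the amygdala of WT mice its level was 9.39 at baseline and then, from 0 hr to 1 wk, 9.21, 9.36, 9.17 and 9.17. In the amygdala of DKO mice the 5 values in the same order were 9.15, 9.09, 9.26, 8.86 and 9.13. The hippocampus gave 9.21, 9.38, 9.52, 9.44 and 9.35 in WT mice and 9.45, 9.34, 9.47, 9.31 and 9.51 in DKO mice. At 9 of the 10 combinations of genotype and time point the hippocampus array was above its amygdala array, the exception being WT mice at baseline, and the ranges of the regions overlapped. The log2 difference between regions was 0.22 (SE 0.054, n = 10 arrays per region, limma adjusted p = 0.00621). Paired by genotype and time point, the difference was 0.12 ± 0.17 (SD, n = 5) in WT and 0.32 ± 0.10 (SD, n = 5) in DKO mice. The test of that difference between genotypes gave 0.20 with a 95% interval of -0.02 to 0.42 (limma adjusted p = 0.315).

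Per3, a member of the Period family of repressors, was also higher in the hippocampus. Its levels in the amygdala were 7.36, 7.36, 7.42, 7.34 and 7.37 in WT mice from baseline to 1 wk and 7.43, 7.35, 7.36, 7.21 and 7.37 in DKO mice. In the hippocampus they were 7.49, 7.52, 7.62, 7.46 and 7.43 in WT mice and 7.53, 7.50, 7.69, 7.47 and 7.66 in DKO mice. The regions did not overlap, although the highest amygdala array and the lowest hippocampus array differed by less than the 2 decimals given here. The hippocampus was higher in 10 of 10 pairs of genotype and time point. The shares of all transcript clusters that separate by region, or that reach such pair counts, were not counted. The difference was 0.18 (SE 0.041, limma adjusted p = 0.00315), a ratio of 1.13. Per3 also varied little within the groups of region and genotype, with a pooled SD of 0.074 where the median over all transcript clusters was 0.13.

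Per1 and Per2 encode the repressors whose transcription is known to answer quickly to light and to signalling. Per1 lay between 6.87 and 7.22 on the 10 amygdala arrays and between 6.69 and 7.17 on the 10 hippocampus arrays. At 1 hr Per1 was 7.22 in WT and 7.10 in DKO amygdala and 6.996 in WT and 7.01 in DKO hippocampus, against baselines of 7.03, 7.04, 6.91 and 7.17 in the same order. So 3 of the 4 groups lay above their baseline and DKO hippocampus lay below it. The change at 1 hr over the 4 groups was 0.05 with a 95% interval of -0.16 to 0.25. The change of largest size of any member on a single array was also in Per1, -0.47 in DKO hippocampus at 48 hr (6.69 against 7.17), where the median of all transcript clusters moved by -0.09. In WT hippocampus Per1 stood at 7.06 at that time point against 6.91 at baseline.

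Per2 was lower in DKO than in WT hippocampus by 0.17 (95% interval of the difference -0.32 to -0.03), which passed at an unadjusted p of 0.0248 and missed the limit after adjustment (limma adjusted p = 0.404). The WT hippocampus values were 6.48, 6.72, 6.68, 6.52 and 6.72 from baseline to 1 wk, and the DKO values were 6.45, 6.48, 6.60, 6.30 and 6.42. The ranges overlapped, with the DKO array below the WT array at each of the 5 time points. In the amygdala Per2 differed by -0.03 between the genotypes, with an interval of -0.19 to 0.13, and the difference between the regions in the genotype effect was -0.14 (adjusted p = 0.409).

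Cry1 and Cry2 encode the cryptochromes, which close the loop together with the Period proteins. Cry1 values in WT amygdala were 7.44, 7.56, 7.60, 7.58 and 7.47 from baseline to 1 wk. In DKO amygdala they were 7.27, 7.21, 7.50, 7.16 and 7.46. Every DKO array lay below the WT array of its time point, but the ranges overlapped. The DKO difference was -0.21 (95% interval -0.38 to -0.04, unadjusted p = 0.0194, limma adjusted p = 0.646). In the hippocampus Cry1 was 7.11, 7.25, 7.39, 7.24 and 7.28 in WT and 7.25, 7.29, 7.41, 7.42 and 7.23 in DKO mice, a difference of 0.06 with an interval of -0.08 to 0.20. The genotype effect in the hippocampus exceeded that in the amygdala by 0.28 (unadjusted p = 0.0124, limma adjusted p = 0.247), so that the contrast between regions also missed the limit. Without the DKO amygdala array at 48 hr the amygdala difference was -0.17 and the contrast 0.23.

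Cry1 was the member that stood farthest above baseline at 1 hr. It was higher than baseline in 4 of 4 groups, by 0.16 to 0.29, and its mean change was 0.21 with a 95% interval of 0.05 to 0.36. The unadjusted p was 0.0108 and the limma adjusted p was 0.777. At 0 hr, 48 hr and 1 wk the mean change of Cry1 was 0.06, 0.08 and 0.10, above baseline in 3 of 4 groups each time. Cry2 ranged from 6.79 to 7.20 in the amygdala and from 6.85 to 7.03 in the hippocampus. Its highest array was WT amygdala at 0 hr, 0.25 above that group's baseline.

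The nuclear receptors Nr1d1 and Nr1d2 encode repressors of Arntl. Nr1d1 was 9.01, 9.31, 9.09, 9.11 and 9.04 in WT amygdala and 9.14, 9.15, 9.32, 8.83 and 9.14 in DKO amygdala. In the hippocampus it was 8.86, 8.999, 8.92, 9.03 and 8.90 in WT mice and 9.06, 8.88, 9.01, 8.97 and 8.91 in DKO mice. The amygdala array was higher in 9 of 10 pairs of genotype and time point. The pair that ran the other way was DKO at 48 hr, with 8.83 in the amygdala and 8.97 in the hippocampus. The hippocampus was lower than the amygdala by 0.16 (95% interval of the difference -0.28 to -0.04), just outside the limit (limma adjusted p = 0.0542). Without the amygdala DKO array at 48 hr, which held the lowest amygdala level of Nr1d1, the difference was -0.20 and passed (limma adjusted p = 0.00592). That array was picked by its low clock gene mean, Nr1d1 included, so this pass was tilted in advance. Counting it, the difference passed under 8 of 26 alternatives, whose adjusted p ran from 0.00431 to 0.123. Nr1d2 ranged from 9.32 to 9.61 in the amygdala and from 9.35 to 9.57 in the hippocampus, a difference of -0.02 with an interval of -0.12 to 0.08.

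The DKO and WT changes of Nr1d1 at 48 hr differed by -0.34 (95% interval -0.66 to -0.01, unadjusted p = 0.0434), and this too missed the limit (limma adjusted p = 0.375). Without the amygdala DKO array, when 1 DKO array is left at 48 hr, it was -0.16 (95% interval -0.47 to 0.16, limma adjusted p = 0.751). For Per1 the same contrast was -0.23 with all arrays (limma adjusted p = 0.6003) and -0.52 without that array (unadjusted p = 0.0104, limma adjusted p = 0.408). The single-array changes of Nr1d1 at 48 hr were 0.10 in WT amygdala, -0.31 in DKO amygdala, 0.17 in WT hippocampus and -0.09 in DKO hippocampus. The medians of all transcript clusters moved by 0.03, -0.13, 0.06 and -0.09 between the same arrays. Nr1d1 and the median of all transcript clusters were thus both below baseline in the DKO groups and both above it in the WT groups at 48 hr, and the part of the array medians in this difference was not tested.

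Dbp and Tef encode the PAR bZIP factors that bind D-boxes such as those in the Per3 promoter shown above. Dbp was 7.35, 7.37, 7.27, 7.26 and 7.19 in WT amygdala, 7.14, 7.35, 7.17, 6.99 and 7.35 in DKO amygdala, 6.96, 7.18, 6.93, 7.20 and 7.15 in WT hippocampus and 7.27, 7.24, 7.07, 7.16 and 7.12 in DKO hippocampus. The amygdala was higher in 8 of 10 pairs, with a mean difference of -0.12 for hippocampus minus amygdala (limma adjusted p = 0.173). From 0 hr to 1 hr Dbp differed by -0.18 over the 4 groups (unadjusted p = 0.0445, limma adjusted p = 0.837). It was the only member with an unadjusted p below 0.05 there, where 5.32% of all transcript clusters had one. Tef ranged from 7.49 to 7.82 in the amygdala and from 7.56 to 7.80 in the hippocampus. Tef was above baseline at 0 hr in 4 of 4 groups, by 0.00 to 0.19, with a mean of 0.09 and an interval of -0.05 to 0.24.

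**Figure D1:**
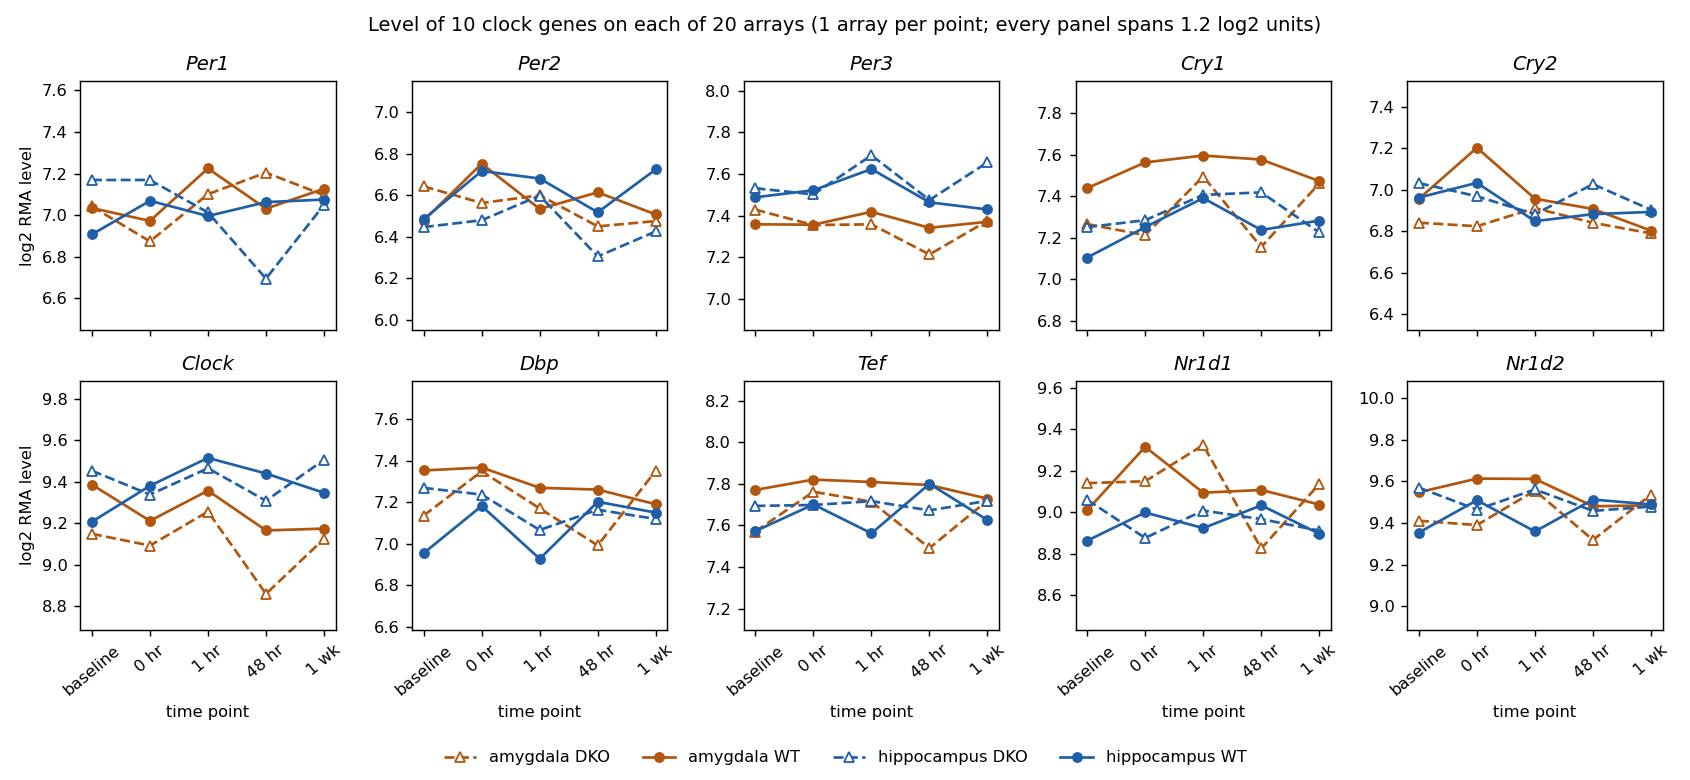
Log2 RMA level (vertical axis, of the same height in every panel) of each clock gene by time point (horizontal axis), 1 point per array; orange is amygdala, blue is hippocampus, filled circles with solid lines are WT and open triangles with dashed lines are DKO. In Per3 the blue points all lie above the orange ones, though the closest are almost level, and Per1 of DKO hippocampus drops to 6.69 at 48 hr.

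Across the 10 genes the comparison between the regions asks where in the brain each clock component is more abundant. Per3 and Clock passed as higher in the hippocampus and no member passed as lower, so 2 of 10 were called where 16.3% of all 28853 transcript clusters were called. The background was 8.3% higher and 8.01% lower in the hippocampus, and the members' share is near it. At an unadjusted p below 0.05 there were 5 members, where 26.9% of all transcript clusters were. Beside Per3 and Clock these were Cry1, Dbp and Nr1d1, with the amygdala higher. Per1, Per2, Cry2, Tef and Nr1d2 had differences between -0.05 and 0.04. Micropunches of the regions also differed in other cells, and their part in the differences of Per3 and Clock was not tested. Means of 7 astrocyte markers were 8.26 to 8.62 on amygdala arrays and 8.71 to 8.96 on hippocampus arrays, those of 7 oligodendrocyte markers were 7.83 to 8.55 and 8.38 to 8.74, those of 7 striatal markers were 9.05 to 9.95 and 7.97 to 8.30, and those of 7 thalamic markers were 6.97 to 7.30 and 7.62 to 8.76. In bulk tissue, fewer cells of a type and less RNA per cell cannot be told apart.

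The comparison of DKO with WT mice asks whether the clock genes differ with loss of calcium-stimulated cAMP synthesis on average over the 5 time points. With limma and a limit of 0.1 on the adjusted p, 0 members passed in the amygdala, where 0.097% of all transcript clusters did (0.0936% as lower), and 0 in the hippocampus, where 0.118% did (0.0173% as higher). The only members with an unadjusted p below 0.05 were Cry1 in the amygdala and Per2 in the hippocampus, 1 of 10 each, where 6.82% and 11.4% of all transcript clusters had one. In the amygdala 9 of 10 members were lower in DKO mice, the exception being Nr1d1 at 0.00, with a median difference of -0.10 where the median of all transcript clusters was -0.01. Without the array at 48 hr, 8 of 10 were lower with a median of -0.06. Markers of neighbouring tissue also differed between the genotypes. The median over arrays of the striatal marker mean was 9.55 in WT and 9.10 in DKO amygdala, and that of the thalamic marker mean was 7.79 in WT and 8.24 in DKO hippocampus. Their part in the genotype differences was not tested. In the hippocampus 8 of 10 were higher in DKO mice, the exceptions being Per1 and Per2, with a median of 0.04 where that of all transcript clusters was -0.02. The intervals over the 10 genes reached from -0.38 to 0.20 in the amygdala and from -0.32 to 0.24 in the hippocampus. The genotype effect was more positive in the hippocampus for 9 of 10 members with a median difference of 0.16, where that of all transcript clusters was -0.004. In that test 0 members passed, where 0.0104% of all transcript clusters did (0.00693% as higher). Without the amygdala DKO array at 48 hr, 8 of 10 were more positive with a median of 0.13. Cry1 and Tef had unadjusted p below 0.05 in the test with all arrays, 2 of 10 where 17.4% of all transcript clusters did.

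**Figure D2:**
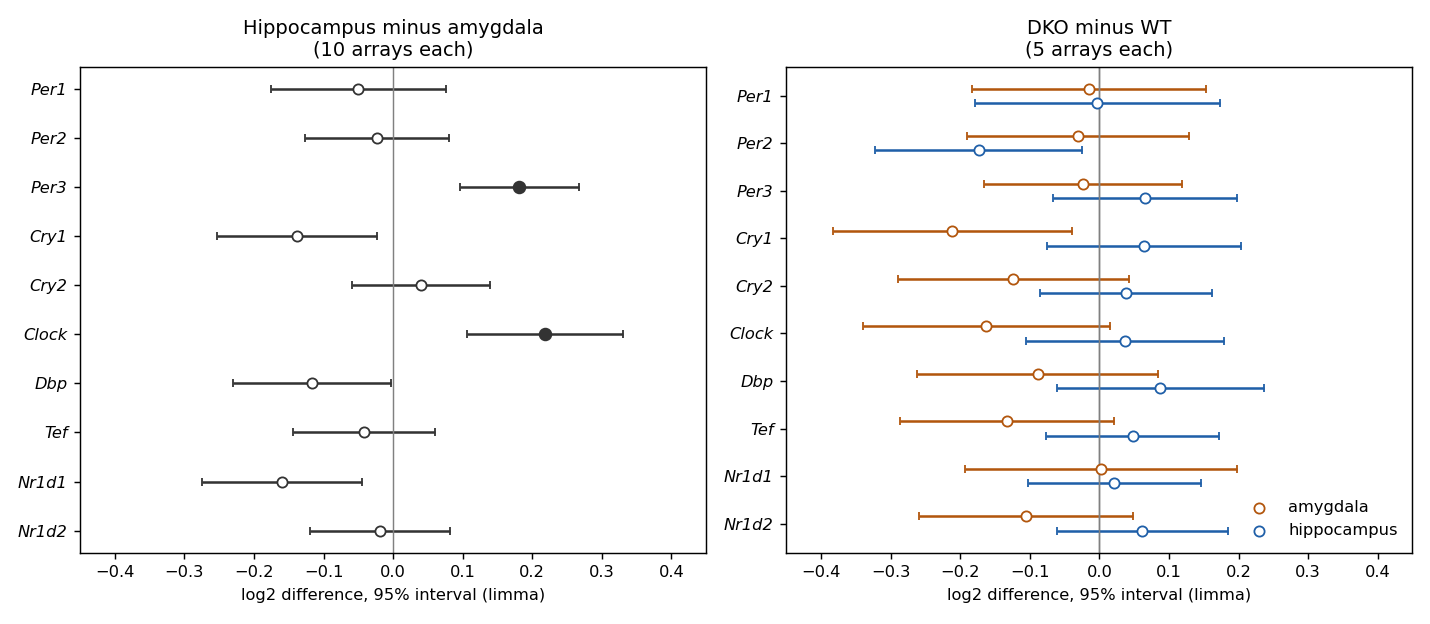
Log2 differences (horizontal axis, point) with 95% intervals (bars) from limma for each clock gene, hippocampus minus amygdala over 10 arrays each (left) and DKO minus WT over 5 arrays each (right, orange amygdala, blue hippocampus). Filled points passed the limit, which only Per3 at 0.18 and Clock at 0.22 did, both between regions.

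To measure change over time, the 4 groups (each region in each genotype) served as replicates of a time point. The test for any difference among time points called 0 members with limma, where 0.0139% of all transcript clusters were called. Its unadjusted p was below 0.05 for 0 members, where it was for 4.98% of all transcript clusters. Against baseline, 0 members were called at any time point, where the background was 0.00347% (0 hr), 0.0243% (1 hr), 0% (48 hr) and 0.00347% (1 wk). At an unadjusted p below 0.05 there was 1 member, Cry1 at 1 hr, where 6.16% of all transcript clusters were. The mean changes over the 10 genes ran from -0.04 to 0.11 (0 hr), from -0.07 to 0.21 (1 hr), from -0.11 to 0.08 (48 hr) and from -0.10 to 0.10 (1 wk). The 95% intervals of these means reached at most 1.21-fold (0 hr), 1.28-fold (1 hr), 1.204-fold (48 hr) and 1.19-fold (1 wk) in either direction. They bound the mean over 4 unlike groups and not the change within 1 region or genotype. Within the amygdala at 48 hr the intervals reached 1.44-fold, and Per1 moved 1.39-fold on the DKO hippocampus array at 48 hr. At 1 hr 8 of 10 members were above baseline, Cry2 and Dbp being below, and at 48 hr 8 of 10 were below, Cry1 and Tef being above. Without the amygdala DKO array 5 of 10 were below baseline at 48 hr. Tissue markers moved between time points too. Means of 7 choroid plexus markers in WT amygdala were 8.71, 7.57, 7.56, 7.76 and 8.84 from baseline to 1 wk. Striatal marker means there were 9.95, 9.55, 9.90, 9.28 and 9.23, against 9.05 to 9.31 in DKO amygdala. The part of these markers in the changes over time was not tested.

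**Figure D3:**
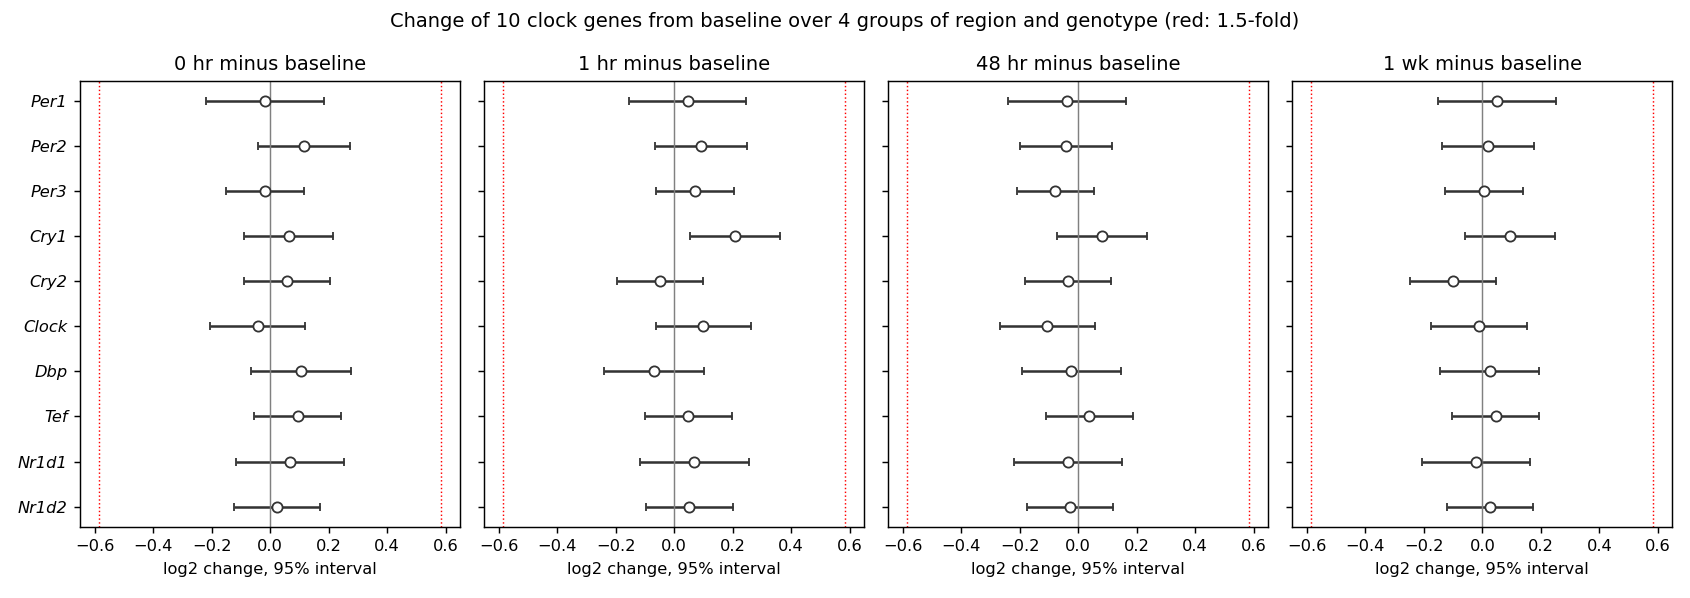
Log2 change from baseline (horizontal axis, point) with 95% interval (bar) from limma for each clock gene and time point, over 4 groups of region and genotype; red dotted lines mark 1.5-fold. All intervals lie inside these lines, and only that of Cry1 at 1 hr, 0.05 to 0.36, lies on one side of 0.

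The regions taken alone gave the same counts. Within the amygdala and within the hippocampus, with 2 arrays per time point, 0 members were called at each time point (limma, background 0.00347% for the amygdala at 1 hr and 0% otherwise). The unadjusted p was below 0.05 for Cry1 in the hippocampus at 1 hr, where 5.87% of all transcript clusters had one. The change of Cry1 there was 0.22. These smaller fits were less precise, and their intervals over the members reached from -0.53 to 0.49 in the amygdala and from -0.45 to 0.44 in the hippocampus. Tests of whether the change from baseline differed by genotype or by region called 0 members at each time point, and 0 of all transcript clusters. At an unadjusted p below 0.05 there was 1 member in these, Nr1d1 at 48 hr between genotypes, where 13.1% of all transcript clusters were.

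Within 1 region and genotype each change rests on 1 array against 1 baseline array and has no replicate check. Of 160 such changes of the members, 0 reached 1.5-fold, against 5327 of 461648 over all transcript clusters (1.15%). The 5 changes of largest size were -0.47 for Per1 in DKO hippocampus at 48 hr, -0.31 for Nr1d1 in DKO amygdala at 48 hr, 0.31 for Clock in WT hippocampus at 1 hr, 0.31 for Nr1d1 in WT amygdala at 0 hr and -0.29 for Clock in DKO amygdala at 48 hr. WT hippocampus was the group in which the members most often lay above baseline, with 10, 7, 8 and 8 of 10 from 0 hr to 1 wk. These counts share 1 baseline array, whose mean over the 10 genes was 7.69 where the later arrays of the group had 7.84, 7.78, 7.82 and 7.79. In DKO hippocampus 3, 5, 1 and 3 of 10 lay above baseline at the same time points. The median change of all transcript clusters was 0.07, 0.03, 0.06 and 0.08 in WT hippocampus. In DKO hippocampus that median was -0.01, -0.004, -0.09 and -0.01. The part of these shifts in the counts was not tested.

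The changes of the clock genes were set beside those of 2 lists of genes with known fast induction, on the same arrays and in the same fit. At 1 hr all 16 early genes, which neurons switch on after activity, were above baseline with a median of 0.26. Egr2, an early transcription factor, was the only one called, with a change of 1.08 (SE 0.13, limma adjusted p = 0.00118). Of 12 genes known to be induced by glucocorticoids all were above baseline at 1 hr with a median of 0.29, and Sgk1, a kinase, was the only one called, with 0.51 (SE 0.085, limma adjusted p = 0.043). The median of the 10 clock genes at 1 hr was 0.06, with 0.00 for all transcript clusters. At 0 hr the medians were 0.19, 0.16 and 0.06 for early genes, glucocorticoid-induced genes and clock genes, with 0.03 for all transcript clusters. At 48 hr they were 0.01, 0.00 and -0.03, with -0.03 for all. At 1 wk, after the testing trial, they were 0.14, 0.09 and 0.02, with 0.03 for all, and 15 of 16 early genes, 11 of 12 glucocorticoid-induced genes and 7 of 10 clock genes were above baseline, with 0 called in the 3 lists.

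**Figure D4:**
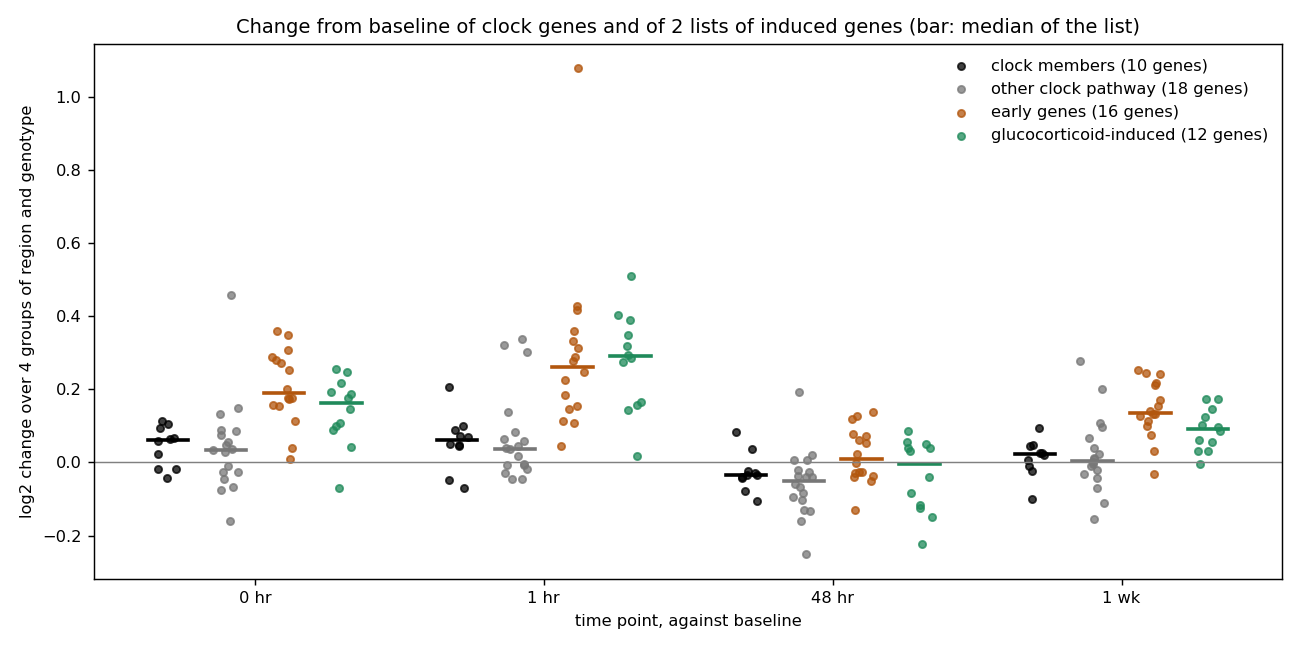
Log2 change from baseline over 4 groups of region and genotype (vertical axis) at each time point (horizontal axis) for the 10 clock members (black), 18 other clock pathway genes (grey), 16 early genes (orange) and 12 glucocorticoid-induced genes (green); each point is a gene and each bar the median of its list. At 1 hr the black points lie between -0.07 and 0.21 with a median of 0.06, and the medians of the induced lists are 0.26 and 0.29.

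Other parts of the clock were measured through 18 further listed genes. Of these 18, 0 passed for genotype in either region, where the shares of all transcript clusters were 0.097% (amygdala) and 0.118% (hippocampus). Of the 18 genes 0 passed for any change from baseline (limma), where at most 0.0243% of all transcript clusters did at a time point. Between the regions 8 of 18 passed, 5 higher and 3 lower in the hippocampus, where 8.3% and 8.01% of all transcript clusters were. Rora (0.36, limma adjusted p = 0.00363), which encodes the activator that opposes REV-ERB, Hlf (0.28, limma adjusted p = 0.0016), a PAR bZIP factor, Nfil3 (0.26, limma adjusted p = 0.00189), a repressor at D-boxes, Bhlhe40 (0.23, limma adjusted p = 0.00845), a repressor at E-boxes, and Fbxw11 (0.23, limma adjusted p = 0.0075), part of a ubiquitin ligase, were higher in the hippocampus. Fbxl21 (-0.34, limma adjusted p = 0.0168) and Btrc (-0.17, limma adjusted p = 0.00865), also ligase parts, and Ciart (-0.34, limma adjusted p = 0.0348), a repressor of CLOCK and BMAL1, were lower there. The value of Ciart is from its brighter transcript cluster alone. Rora is also 1 of the 7 thalamic markers above, and its part in that tissue difference was not tested. Arntl, the partner of Clock, differed between regions by 0.02 (limma adjusted p = 0.895).

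At 1 hr Bhlhe40 was 0.34 above baseline (unadjusted p = 0.000724, limma adjusted p = 0.389) and Nfil3 0.30 (limma adjusted p = 0.613), more than any of the 10 members, and neither passed. In the DKO amygdala 17 of these 18 genes were lower than in the WT amygdala, with a median of -0.14. Without the array at 48 hr it was 16 of 18 and -0.08. In the DKO hippocampus 13 of 18 were higher, with a median of 0.05. The medians of all transcript clusters were -0.01 (amygdala) and -0.02 (hippocampus). Changes of at least 1.5-fold on single arrays were seen in Bhlhe41 (-0.74 in WT amygdala at 1 wk), Fbxl21 (-0.64 in WT amygdala at 48 hr) and Ciart (0.89, 0.64 and 1.20 in DKO amygdala at 0 hr, 1 hr and 1 wk and 0.62 in DKO hippocampus at 0 hr). The other transcript cluster of Ciart, 10500272, read 7.11 at baseline and 7.14, 7.10 and 7.09 at those time points in DKO amygdala, so that the probe groups of this gene disagree there. In DKO hippocampus it read 6.93 at baseline and 7.05 at 0 hr, a smaller rise than that of the brighter cluster.

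How the clock genes varied together was described over the 20 arrays, after the mean of each region and genotype was taken off. The arrays share their normalization. The median Pearson correlation of the 45 pairs was 0.30, with 37 pairs above 0. Dbp and Tef went together most closely (0.77), followed by Nr1d1 and Nr1d2 (0.72) and by Per3 and Clock (0.67). Without the amygdala DKO array at 48 hr these fell to 0.68, 0.63 and 0.54 and the median to 0.20. The lowest value was -0.28, for Per3 and Cry2, which stood at 0.10 once each array was centred on its median. The lowest pair was then Per1 and Nr1d1 (-0.27), and without the amygdala DKO array at 48 hr it was Per3 and Dbp (-0.57). Over these 20 arrays and 11757 candidate genes above the median level, the nearest genes to Clock were Supt16 (0.95), Usp32 (0.94) and Focad (0.94). The nearest to Per3 were Add2 (0.84), Kcnb2 (0.84) and Zhx3 (0.83). The nearest gene was Zfp606 (0.83) for Per1, Mcrip1 (0.83) for Per2, F630111L10Rik (0.87) for Cry1, Cyp46a1 (0.78) for Cry2, 2310061I04Rik (0.88) for Dbp, Ythdf1 (0.92) for Tef, Synj2 (0.90) for Nr1d1 and Dcaf12l1 (0.88) for Nr1d2. No other member was the nearest gene of a member.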

How the data were processed

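RNA was hybridized to 20 arrays. According to the methods and the labels, the authors normalized and summarized the probes by RMA in the Affymetrix Expression Console (version not given in the sources used here), and the deposited values are on a log2 scale. All 28853 transcript clusters and all arrays entered the fits. The 10 genes, the other lists and the tests were chosen with earlier results of these data known. Genes named are all 10 members, listed pathway genes past a test or past 1.5-fold on 1 array, and for each member the 3 genes most correlated with it, of which 1 is printed for most. Arntl, Egr2, Sgk1 and the deleted genes Adcy1 and Adcy8 fall outside this rule. Arntl was added as the partner of Clock and Egr2 and Sgk1 as the calls in their lists, after their values were seen. Some listed pathway genes are not reported here. A gene of several transcript clusters is represented by the brightest.

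The tests were linear models with empirical Bayes moderation (limma 3.58.1, R 4.3.3), and p-values were adjusted by the Benjamini-Hochberg method across every transcript cluster of the array. Genotype was tested within each region, the 5 time points of a genotype serving as replicates, with a limit of 0.1 on the adjusted p. The methods set 0.1 as the limit on q-values from the Qvalue program, which is a different measure. Other comparisons used 0.05. Changes within 1 region and genotype were counted at 1.5-fold with no test. Because each array is a pool and groups differ in time point or region, p-values measure the spread between these arrays only, and their number limits the precision. The script was tested on simulated data. Promoter sequences came from RefSeq. Counts used pandas 2.3.3 and plots used matplotlib 3.10.9 in Python 3.11.15. Alternatives were a further quantile normalization, median centring, a filter above the median level, array weights, robust fitting with a variance trend, the methods' t-test, other limits and reference arrays, 1 fit of all arrays, replicate blocks and each array left out.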

Additional observations from a re-analysis of the deposited data

How the results depend on the processing

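The count of clock genes past the limit was 0 for every comparison of genotype and of time under every alternative run. For the region difference it was 2, and 2 to 3 under the other settings. Leaving out each array in turn gave 2 to 5, with 5 without the amygdala DKO array at 48 hr, where Cry1 (-0.17, limma adjusted p = 0.0188), Dbp (-0.15, limma adjusted p = 0.0386) and Nr1d1 joined. Each of these had its lowest amygdala level on that array, which was picked by the clock gene mean. Their passes without it are therefore not independent support. Cry1 also passed without the hippocampus DKO array at 48 hr (limma adjusted p = 0.0434). Per3 and Clock passed under all 26 alternatives, at 0.17 to 0.20 and 0.19 to 0.25. With the pairs of arrays of 1 genotype and time point as a replicate block, Nr1d1 passed as well (limma adjusted p = 0.0319), and with the time point as a replicate block 0 members passed for genotype. Of 2161 values of single members under alternatives, 2150 stayed on their side of the limit, 11 newly passed, 0 were lost and 0 reversed, while 116 values that passed no limit changed sign. Over all transcript clusters the calls ran from 3956 to 7415 for region, from 2 to 47 at 1 hr, from 20 to 38 for genotype in the amygdala and from 26 to 55 in the hippocampus. Per2 lay below the median level and dropped out under that filter.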
